A study of Mus musculus with 16 samples.

Results

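The 9 genes described here move glutamate and glutamine across membranes or convert glutamate to glutamine. *Slc1a1*, *Slc1a2* and *Slc1a3* encode the glutamate transporters EAAC1, GLT-1 and GLAST, *Slc1a4* and *Slc1a5* the neutral amino acid transporters ASCT1 and ASCT2, *Slc17a6* and *Slc17a7* the vesicular glutamate transporters VGLUT2 and VGLUT1, *Glul* glutamine synthetase and *Slc38a1* the glutamine transporter SNAT1. The set was drawn up as a list of gene names, with no threshold on a measured value, and makes up 9 of 53679 gene symbols in the data. In cortex, excitatory neurons load glutamate into synaptic vesicles through VGLUT1 and VGLUT2 and release it at synapses. Astrocytes take most of it up again through GLT-1 and GLAST, amidate it with glutamine synthetase and return the glutamine to neurons, and EAAC1 is the main uptake carrier of the neurons themselves. When oxygen and glucose run out, ion gradients collapse and glutamate accumulates outside the cells, which makes this cycle a central subject in ischemia.

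The study asked how tianeptine (TIA, an atypical antidepressant) changes the response of primary cortical neurons to oxygen–glucose deprivation (OGD, an in vitro model of stroke). Neurons came from wild type mouse embryos at E15 and were grown in Neurobasal medium with B27. There were 16 cultures in 4 groups of 4: CONTROL-VEH (cultures 1 to 4) received vehicle and sham treatment, CONTROL-TIA (5 to 8) received 10 μM TIA at DIV 8 and sham treatment, OGD-VEH (9 to 12) received vehicle and 3-h OGD at DIV 9, and OGD-TIA (13 to 16) received TIA 24 h before the same OGD. RNA was collected 6 h after OGD and sequenced. The study names the 4 cultures of a group biological replicates, but the sources used here do not state whether they came from separate dissections, and p-values measure the spread between these cultures only. Levels are given as FPKM, read fragments scaled to isoform length and library size, and were added up over all isoforms of a gene. Depth was estimated at 20050000 to 25300000 reads per culture, at which 1 read on an isoform of 1 kilobase amounts to 0.0395 to 0.0499 FPKM. This estimate comes from the scaled values and can differ from the number of reads aligned by the study. Genes with padj ≤ 0.05 whose log2 fold change was 1 or more in size were called differentially expressed (DEGs).

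The cultures are labelled as neurons, and all 8 neuron markers examined were expressed, with a summed level of 2659 to 3148 FPKM in CONTROL-VEH. Markers of other neural cells were expressed as well. Of 10 astrocyte markers, 9 passed a mean of 0.5 FPKM, among them *Aldoc* at 425 ± 276 and *Aldh1l1* at 134 ± 51.5 FPKM in CONTROL-VEH (mean ± SD, n = 4), whereas *Gjb6* was near 0 with a mean of 0.0224 FPKM over all cultures. All 6 radial glia markers were expressed, led by *Fabp7* with a mean of 1589 FPKM. Microglia markers were close to 0, with 1 of 7 above 0.5 FPKM (*Aif1*, 1.03 FPKM). After OGD the neuron sum was 1123 to 2381 FPKM in OGD-VEH and 1574 to 2687 FPKM in OGD-TIA. The radial glia sum was 1577 to 2083 FPKM in CONTROL-VEH, 2390 to 5733 FPKM in OGD-VEH and 2127 to 3822 FPKM in OGD-TIA. In bulk RNA, fewer cells of a type and less RNA per cell cannot be told apart. Culture 12 (OGD-VEH) and culture 16 (OGD-TIA) stood apart from their groups in the marker scores, and values without them are given beside the main results they touch. Culture 4 (CONTROL-VEH) also stood apart, with an astrocyte score of 0.50 against -0.50 to -0.29 in the rest of its group. Culture 9 had a neuron score of 0.05, against -1.28 to -0.42 in the rest of OGD-VEH. Both were kept in the fits without cultures 12 and 16. Oligodendrocyte lineage markers summed to 171 to 206 FPKM in CONTROL-VEH, 232 to 637 in OGD-VEH, 152 to 189 in CONTROL-TIA and 216 to 412 in OGD-TIA. Without TIA, 3 of the 6 tested (*Olig1*, *Olig2* and *Cspg4*) were DEGs, all higher after OGD, against 4.09% of all genes in either direction. Of the others, 1 was lower after OGD at padj of at most 0.05, under the fold threshold. Of 7 inhibitory neuron markers 1 was a DEG, *Sst*, with 280 ± 77.8 FPKM in CONTROL-VEH and 77.8 ± 68.7 in OGD-VEH. The list was mixed, with 4 negative and 3 positive log2 fold changes without TIA. *Dlx1* was among those that were higher, with 76.8 ± 41.6 FPKM in CONTROL-VEH and 147.5 ± 54.3 in OGD-VEH. The part of these markers in the results was not tested.

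Compared per full-length coding isoform, *Glul* had the highest level of the 9 genes, with a mean of 268 FPKM over the 16 cultures, followed by *Slc1a3* at 208 FPKM. A middle group ran from *Slc1a4* at 49.7 FPKM through *Slc38a1* at 37.6, *Slc17a7* at 36.9 and *Slc1a2* at 32.7 to *Slc1a1* at 28.4 FPKM. *Slc17a6* (6.13 FPKM) and *Slc1a5* (2.76 FPKM) were lowest, with 179 to 812 and 59 to 291 estimated reads per culture. The ranges over cultures of neighbours in the middle group overlapped, as did those of *Glul* (224 to 447 FPKM) and *Slc1a3* (136 to 510 FPKM). The summed FPKM used in the tests are higher for genes with abundant short isoforms. The 379-base isoform Glul-203 held 62.9% of *Glul* FPKM, the 469-base retained-intron isoform Slc1a3-204 held 50.3% of *Slc1a3*, and the 506-base retained-intron isoform Slc38a1-205 held 46.1% of *Slc38a1*. Levels of the members are therefore ranked per full length. The shares given below and the ranking of other glutamate genes by abundance use summed FPKM, in which short isoforms carry weight.

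**Figure D1:**
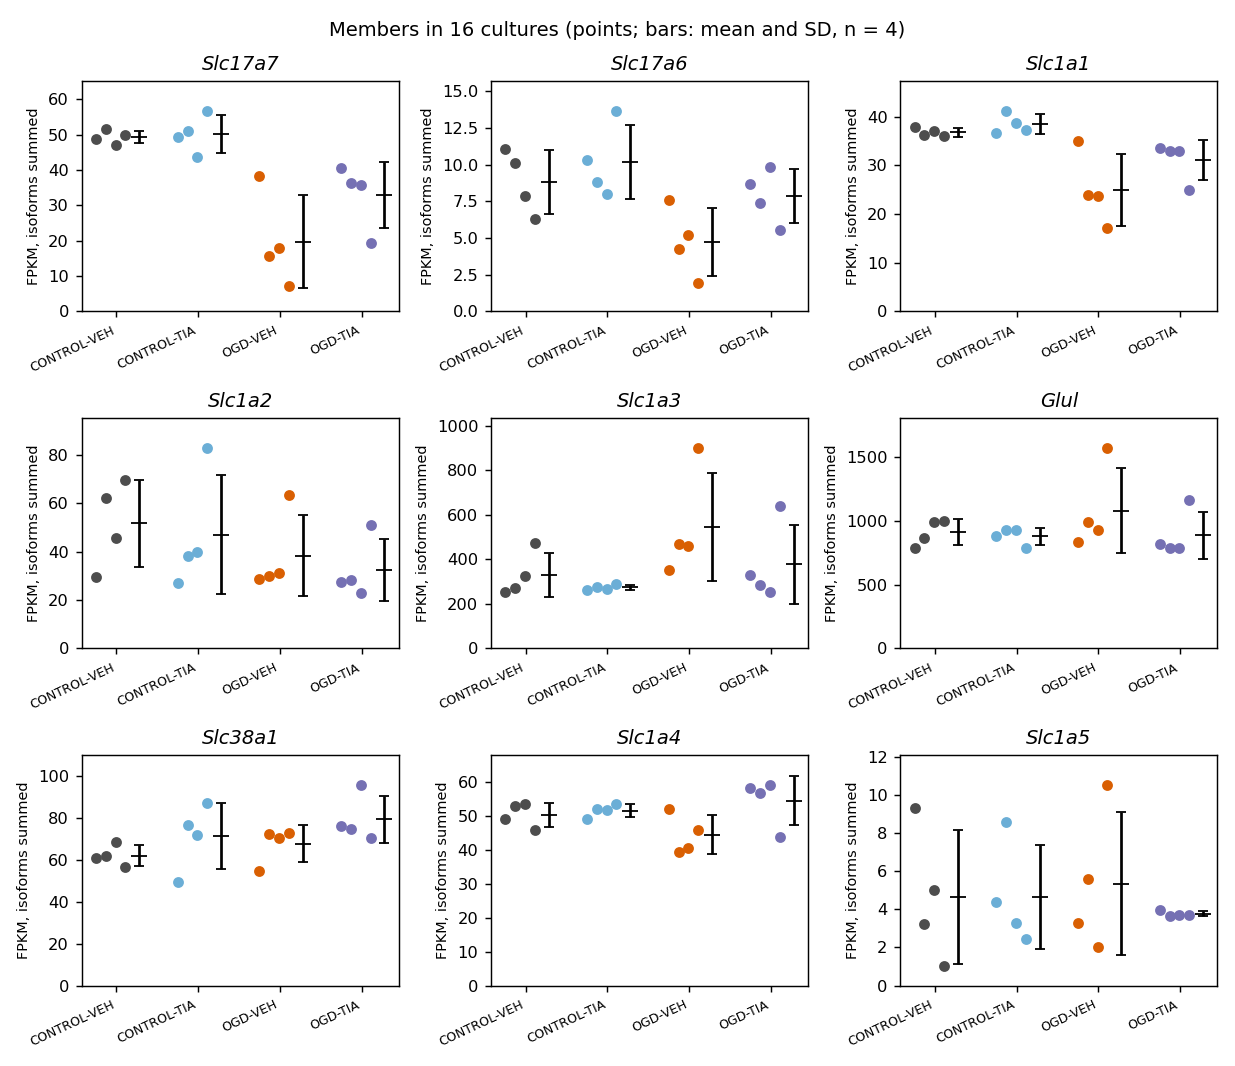
FPKM of each gene (isoforms summed, y axis from 0) in the 16 cultures by group, with 1 point per culture in the order of culture number and bars for the mean and SD of 4 cultures. *Slc17a7* and *Slc1a1* lie below both control groups in all 8 OGD cultures, and *Slc1a3* and *Glul* are highest in culture 12 at 899 and 1571 FPKM.

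*Slc17a7*, which lies at chr7:45163949-45176142 on the plus strand (GRCm38) and marks mature cortical excitatory neurons, was the member with the largest difference after OGD. The 4 CONTROL-VEH cultures measured 48.8, 51.5, 47.2 and 49.9 FPKM. The 4 OGD-VEH cultures measured 38.3, 15.5, 18.0 and 7.01 FPKM. All 4 lay below the lowest control, but their spread was wide, since culture 9 remained near the controls and culture 12 was lowest. The means were 49.3 ± 1.81 and 19.7 ± 13.2 FPKM (SD, n = 4). The log2 fold change of -1.57 (SE 0.43) missed the threshold in limma with padj = 0.053. With TIA, the CONTROL-TIA cultures measured 49.2, 50.9, 43.7 and 56.7 FPKM and the OGD-TIA cultures 40.4, 36.2, 35.8 and 19.3 FPKM. These groups did not overlap either, and 3 of the 4 OGD-TIA cultures lay close together. The log2 fold change was -0.65 (SE 0.22, padj = 0.191). Over both arms, with 8 OGD against 8 control cultures of the same data, *Slc17a7* fell by 1.11 on the log2 scale (SE 0.26, padj = 0.00713) and was called as a DEG. Without culture 12 the change was -0.91 (padj = 0.0066), without culture 16 it was -0.99 (padj = 0.0151), and without both it was -0.79 (padj = 0.00736), so that padj held in each case and the fold threshold did not.

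*Slc17a6*, encoding the vesicular transporter that is more typical of subcortical and immature glutamatergic neurons, lies at chr7:51622006-51671119 on the plus strand. It measured 11.1, 10.1, 7.83 and 6.28 FPKM in CONTROL-VEH, against 7.58, 4.21, 5.17 and 1.95 FPKM in OGD-VEH. The groups overlapped through culture 9, and the log2 fold change was -1.004 (SE 0.39, padj = 0.106). In CONTROL-TIA it measured 10.3, 8.81, 7.96 and 13.6 FPKM, and in OGD-TIA 8.67, 7.40, 9.84 and 5.54 FPKM, with a log2 fold change of -0.37 (SE 0.22, padj = 0.38). Over both arms it fell by 0.69 (SE 0.24, padj = 0.0375). This padj was above 0.05 in 9 of the 16 fits that left out a culture, with a highest value of 0.0775.

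*Slc1a1*, at chr19:28835049-28913960 on the plus strand, encodes the neuronal carrier EAAC1. The CONTROL-VEH cultures lay within a narrow band of 37.8, 36.2, 37.0 and 35.9 FPKM. The OGD-VEH cultures measured 35.0, 24.0, 23.8 and 17.1 FPKM. All 4 were below the lowest control, culture 9 by little, and the log2 fold change was -0.60 (SE 0.20, padj = 0.0768). CONTROL-TIA gave 36.6, 41.1, 38.7 and 37.2 FPKM and OGD-TIA 33.5, 33.0, 32.9 and 24.98 FPKM, again without overlap, with a log2 fold change of -0.31 (SE 0.11, padj = 0.202). Over both arms *Slc1a1* fell by 0.46 (SE 0.12, padj = 0.0105), under the fold threshold, and padj stayed at or below 0.0223 whichever culture was left out.

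Sequences upstream of these 3 genes are shown because they are the members that were lower after OGD at padj of at most 0.05 over both arms. RefSeq promoter windows (GRCm38.p6) were found for 7 of the 9 genes in 8 windows, and the 250 bases before the annotated start site are printed 5′ to 3′. Capitals mark matches, on either strand, to the GC box GGGCGG (in 32.7% of 32851 windows of this length), the E-box CACGTG (6.02%), the cAMP response core TGACG (17.8%), the AP-1 site TGACTCA (4.46%), the hypoxia response core ACGTG (16.6%), which is also part of the E-box, and the TATA box TATAAA (12.4%).
*Slc17a7*, chr7:45163671-45163920, plus strand: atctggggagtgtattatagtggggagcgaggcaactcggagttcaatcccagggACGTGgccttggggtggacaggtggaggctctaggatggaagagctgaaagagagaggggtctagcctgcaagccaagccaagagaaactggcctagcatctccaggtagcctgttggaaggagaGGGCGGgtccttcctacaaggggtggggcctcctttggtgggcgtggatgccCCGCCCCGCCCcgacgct
*Slc17a6*, chr7:51621580-51621829, plus strand: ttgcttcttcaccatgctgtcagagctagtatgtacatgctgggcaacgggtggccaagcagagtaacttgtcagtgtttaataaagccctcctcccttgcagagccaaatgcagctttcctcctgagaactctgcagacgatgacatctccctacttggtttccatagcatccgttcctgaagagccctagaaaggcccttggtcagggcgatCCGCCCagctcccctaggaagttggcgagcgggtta
*Slc1a1*, chr19:28834885-28835134, plus strand: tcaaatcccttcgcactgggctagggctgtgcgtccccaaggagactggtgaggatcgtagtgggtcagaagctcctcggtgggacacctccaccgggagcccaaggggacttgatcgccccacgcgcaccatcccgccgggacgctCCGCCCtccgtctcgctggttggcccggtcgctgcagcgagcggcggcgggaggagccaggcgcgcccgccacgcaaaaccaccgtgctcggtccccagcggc

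The windows of *Slc17a7*, *Slc17a6* and *Slc1a1* held 3, 1 and 1 GC boxes, and the *Slc17a7* window held the hypoxia response core once. A second annotated window of *Slc17a6* held a cAMP response core and no GC box. None of the 8 windows held an E-box or an AP-1 site. GC content was 61.2% for *Slc17a7*, 53.2% for *Slc17a6* and 70.4% for *Slc1a1*, against a median of 52.4% over all windows. For comparison, the *Slc1a3* window had 44.8% GC with 1 GC box, 1 cAMP response core and 1 TATA box. The *Slc1a2* window had 44.8% GC and no GC box. The *Slc1a4* and *Glul* windows each had 64.8% GC, with 3 and 1 GC boxes, so these features were not particular to the 3 genes shown. A match describes the letters of the window only.

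*Slc1a3*, at chr15:8634124-8710764 on the minus strand, encodes GLAST, which radial glia and astrocytes express. CONTROL-VEH cultures measured 255, 271, 323 and 474 FPKM and OGD-VEH cultures 351, 470, 458 and 899 FPKM. The OGD-VEH cultures were higher on average, but control culture 4 was above 3 of them. The log2 fold change was 0.67 (SE 0.30, padj = 0.149). CONTROL-TIA measured 265, 275, 266 and 291 FPKM and OGD-TIA 330, 286, 253 and 639 FPKM, where culture 16 alone was far above the controls (log2 fold change 0.36, SE 0.26, padj = 0.459). Leaving out culture 12 gave 0.40 (padj = 0.276) in the arm without TIA, and the arm with TIA gave 0.07 (padj = 0.708) without culture 16. Over both arms the change was 0.52 (SE 0.21, padj = 0.0758), and 0.24 (padj = 0.208) without cultures 12 and 16.

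*Slc1a2*, at chr2:102658659-102790784 on the plus strand, encodes GLT-1, the main glutamate transporter of mature astrocytes. It varied widely within every group, with 29.5, 62.2, 45.6 and 69.8 FPKM in CONTROL-VEH, against 28.6, 30.0, 31.2 and 63.3 FPKM in OGD-VEH. CONTROL-TIA measured 26.9, 38.1, 39.99 and 82.8 FPKM and OGD-TIA 27.3, 28.3, 23.1 and 51.2 FPKM. In each group 1 culture (4, 8, 12 or 16) was highest, and all groups overlapped. Part of this spread lay in short isoforms: Slc1a2-212 (567 bases) ranged from 0 to 24.4 FPKM, and Slc1a2-205 (510 bases) was at 18.7 FPKM in culture 2 and 16.4 FPKM in culture 8 but at most 0.055 FPKM in the other cultures. The log2 fold change was -0.45 (SE 0.34, padj = 0.368) without TIA, -0.47 (SE 0.37, padj = 0.49) with TIA and -0.46 (SE 0.26, padj = 0.196) over both arms. Without cultures 12 and 16 it was -0.71 over both arms with padj = 0.0489, while cultures 4 and 8, the highest controls, were kept. In that fit 23.3% of all genes had padj of at most 0.05.

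**Figure D2:**
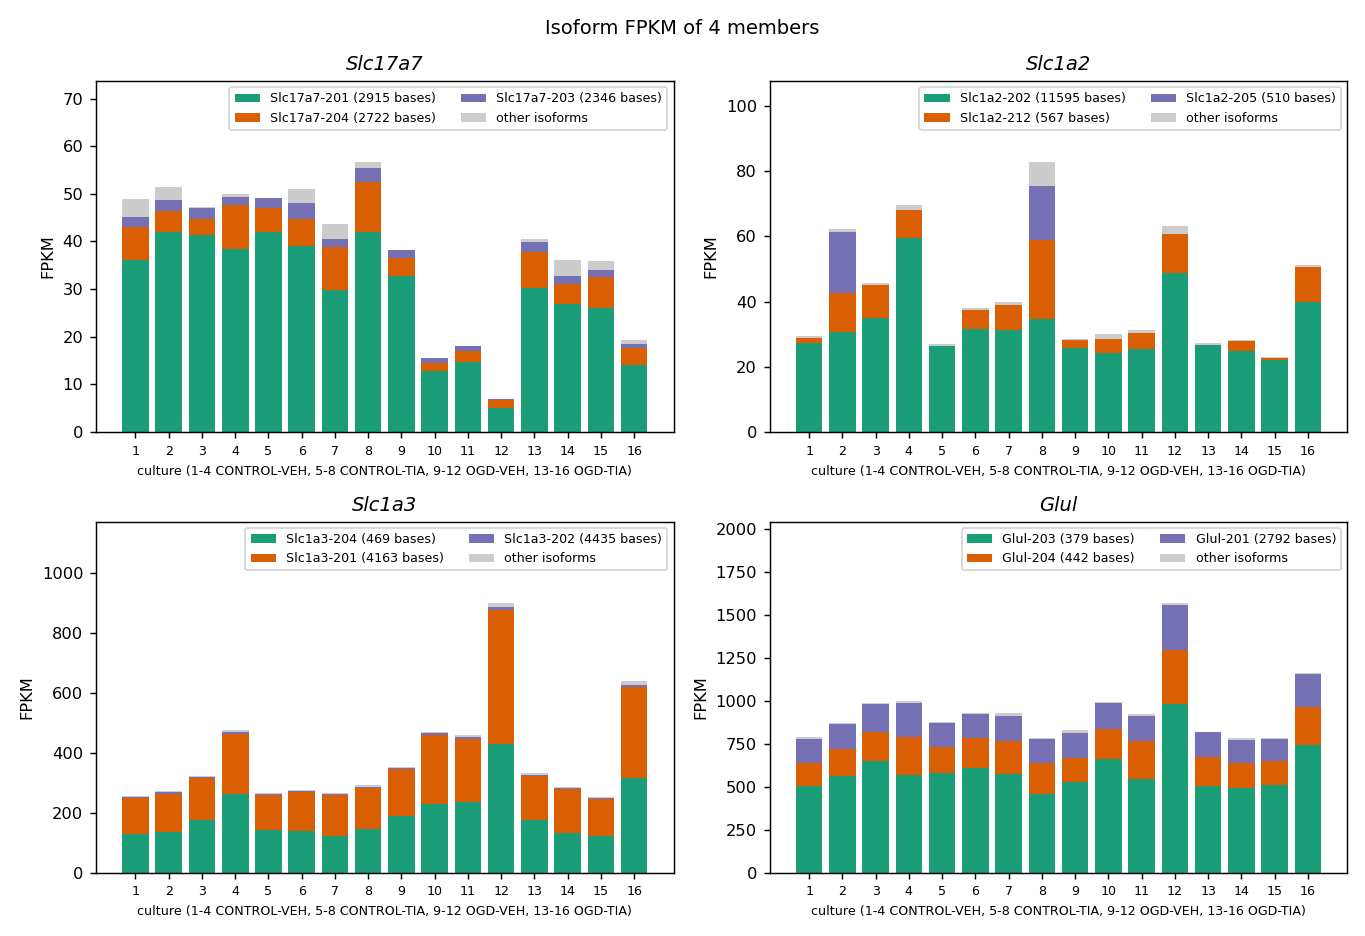
Stacked isoform FPKM of *Slc17a7*, *Slc1a2*, *Slc1a3* and *Glul* in cultures 1 to 16, with the 3 leading isoforms named by length and the remaining ones in grey. The full-length isoform of *Slc17a7* falls from 36.2 FPKM or more in the CONTROL-VEH cultures to 5.01 FPKM in culture 12, and Slc1a2-205 appears in cultures 2 and 8.

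*Glul*, at chr1:153899944-153909723 on the plus strand, makes glutamine from glutamate and ammonia in astrocytes. It measured 788, 869, 990 and 1000 FPKM in CONTROL-VEH. After OGD without TIA it measured 832, 994, 926 and 1571 FPKM. The TIA arm gave 878, 930, 928 and 785 FPKM in CONTROL-TIA and 820, 785, 786 and 1165 FPKM in OGD-TIA. Leaving cultures 12 and 16 aside, OGD cultures lay within the range of the controls. The log2 fold change was 0.21 (SE 0.19, padj = 0.46) without TIA, 0.00 (SE 0.13, padj = 0.991) with TIA and 0.10 (SE 0.12, padj = 0.55) over both arms. Without TIA it was 0.01 (padj = 0.952) when culture 12 was left out.

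*Slc38a1*, at chr15:96571418-96642913 on the minus strand, carries glutamine into neurons. It measured 60.7, 61.8, 68.4 and 56.4 FPKM in CONTROL-VEH, against 54.4, 72.5, 70.3 and 72.9 FPKM in OGD-VEH, with a log2 fold change of 0.12 (SE 0.13, padj = 0.522). In CONTROL-TIA it measured 49.5, 76.8, 71.9 and 87.0 FPKM and in OGD-TIA 76.1, 74.7, 95.5 and 70.5 FPKM (log2 fold change 0.17, SE 0.18, padj = 0.613). The groups overlapped in both arms. The coding isoform Slc38a1-202 (6966 bases, 39.5% of the gene's FPKM) behaved differently from the sum, a comparison made after its values were seen. It measured 25.4, 24.1, 21.1 and 22.1 FPKM in CONTROL-VEH, against 28.4, 31.3, 30.9 and 27.1 FPKM in OGD-VEH. It measured 24.2, 27.2, 26.8 and 29.0 FPKM in CONTROL-TIA and 29.8, 33.2, 32.0 and 29.3 FPKM in OGD-TIA. OGD cultures were thus above the controls of their own arm in each case, and the share of all isoforms without overlap was not computed. With isoforms weighted by their length, which gives short isoforms less weight, *Slc38a1* rose by 0.24 over both arms (padj = 0.00223). In the sum it rose by 0.15 (SE 0.11, padj = 0.332). With length weights 45.5% of all genes had padj of at most 0.05 over both arms, against 32.5% with the sum.

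*Slc1a4*, at chr11:20302180-20332713 on the minus strand, encodes a carrier of serine, alanine and other small neutral amino acids. It measured 49.2, 52.8, 53.3 and 45.9 FPKM in CONTROL-VEH. After OGD without TIA it measured 51.9, 39.4, 40.6 and 45.9 FPKM. The TIA arm gave 49.0, 51.9, 51.8 and 53.5 FPKM in CONTROL-TIA and 58.3, 56.9, 59.0 and 43.8 FPKM in OGD-TIA. In OGD-TIA, 3 cultures were above every control and culture 16 was below them. Its log2 fold changes were -0.18 (SE 0.12, padj = 0.307) without TIA, 0.07 (SE 0.11, padj = 0.747) with TIA and -0.06 (SE 0.08, padj = 0.604) over both arms.

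*Slc1a5*, at chr7:16781340-16798274 on the plus strand, encodes a glutamine exchanger of dividing cells. It was the lowest of the 9 genes and ranged from 1.03 to 9.28 FPKM in CONTROL-VEH, from 2.04 to 10.49 in OGD-VEH, from 2.44 to 8.55 in CONTROL-TIA and from 3.64 to 3.95 in OGD-TIA. Its log2 fold changes had the largest errors of the set without TIA (0.31, SE 0.69, padj = 0.77) and over both arms (0.08, SE 0.41, padj = 0.894), and its groups overlapped in both arms.

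Counted together, 0 of 9 members were DEGs between OGD-VEH and CONTROL-VEH, against 4.09% of the 16346 genes tested (1.68% as lower), and none of the 9 had padj of at most 0.05, against 8.44% of genes in either direction and 3.45% as lower. At an unadjusted p under 0.05 there were 3 of 9, against 35% of genes. The number of DEGs among the members was 1 (*Slc17a7*) with a minimum mean of 2 FPKM, array quality weights or isoforms weighted by length, where 4.87%, 11.8% and 6.79% of all genes were DEGs. It was 2 (*Slc17a7* and *Slc17a6*) when all 16 cultures were fitted together or culture 9 was left out, where the shares of all genes were 8.52% and 13.4%. The groups did not overlap and were lower after OGD for 2 of 9 members (*Slc17a7* and *Slc1a1*), against 9.95% of all genes. The median log2 fold change of the members was -0.18, and that of all genes 0.10. Between OGD-TIA and CONTROL-TIA, 0 of 9 members and 0% of 16242 genes were DEGs, with 2 of 9 members and 19.5% of genes at an unadjusted p under 0.05. This 0% from limma does not show that OGD had no effect with TIA, and 80 genes were DEGs when array quality weights were used. The study, with a test on counts at the same thresholds, reported DEGs in this comparison. In each arm it reported more of them than limma gave here. *Slc17a7* and *Slc1a1* were again lower without overlap, against 6.72% of genes, and the medians were -0.15 and 0.04.

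Over both arms, 1 of 9 members was a DEG, against 4.8% of 16313 genes in either direction and 2.01% as lower. At padj of at most 0.05 without a fold threshold, 3 members were lower (*Slc17a7*, *Slc17a6* and *Slc1a1*), against 13.7% of all genes, and 0 were higher, against 18.8%. *Slc17a7* and *Slc1a1* were lower in all 8 OGD cultures than in any of the 8 controls, against 2.42% of genes. The median of the members was -0.06 and that of all genes 0.08. These 3 comparisons share their cultures and are not independent of each other.

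**Figure D3:**
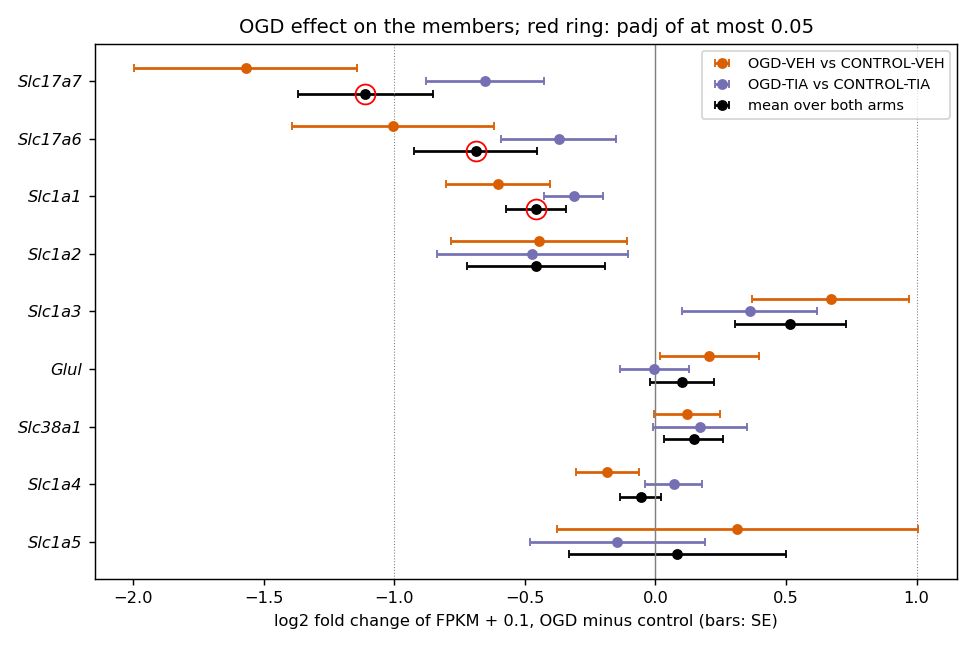
Log2 fold change of each gene (x axis, on FPKM + 0.1, bars for the SE) for OGD-VEH against CONTROL-VEH, OGD-TIA against CONTROL-TIA and the mean of both arms. The 3 rings mark padj of at most 0.05, all in the mean of both arms, and only *Slc17a7* passes the fold threshold there with -1.11.

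No effect of TIA alone was detected for the 9 members. Between CONTROL-TIA and CONTROL-VEH, log2 fold changes ran from -0.23 (*Slc1a3*) to 0.22 (*Slc1a5*), every padj was 0.999, and 0 of 9 members and 0% of 16170 genes were DEGs by limma, with 0 of 9 members and 3.84% of genes at an unadjusted p under 0.05. *Slc17a7* differed by 0.02 (SE 0.09) and *Slc1a1* by 0.06 (SE 0.07).

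Among cultures with OGD, the neuronal transporters were higher on average with TIA and *Slc1a3* was lower, but none passed the test. OGD-TIA against OGD-VEH gave log2 fold changes of 0.93 (SE 0.48, padj = 0.551) for *Slc17a7*, 0.84 (SE 0.39, padj = 0.551) for *Slc17a6* and 0.35 (SE 0.22, padj = 0.551) for *Slc1a1*. For *Slc1a4* the value was 0.29 (SE 0.14, padj = 0.551) and for *Slc1a3* -0.54 (SE 0.36, padj = 0.558). All groups overlapped. For *Slc17a7*, culture 9 of OGD-VEH was above 3 of the 4 OGD-TIA cultures. Of the members, 0 of 9 were DEGs, as were 0% of 16351 genes, and 0 of 9 members had an unadjusted p under 0.05, against 7.91% of genes. With array quality weights *Slc17a7* was called (1.08, padj = 0.0484), as were 408 of all genes (2.5%). Leaving out culture 12 gave smaller values of 0.52 for *Slc17a7*, 0.48 for *Slc17a6* and 0.19 for *Slc1a1*, each with padj = 0.870, and -0.27 for *Slc1a3* (padj = 0.875). With each culture left out in turn, values ran from 0.52 to 1.33 for *Slc17a7* and from 0.48 to 1.12 for *Slc17a6*. They ran from 0.19 to 0.53 for *Slc1a1* and from -0.83 to -0.27 for *Slc1a3*, and the lowest padj of these genes was 0.1607. Tested as an interaction, the change of the OGD effect by TIA was 0.91 (SE 0.52, padj = 0.722) for *Slc17a7*, 0.63 (SE 0.47, padj = 0.727) for *Slc17a6*, 0.29 (SE 0.23, padj = 0.736) for *Slc1a1* and -0.31 (SE 0.43, padj = 0.8285) for *Slc1a3*. Without culture 12 these were 0.50, 0.27, 0.12 and -0.04. With each culture left out in turn, they ran from 0.50 to 1.32, 0.27 to 0.91, 0.12 to 0.47 and -0.60 to -0.04. The lowest padj among these fits was 0.1688, for *Slc17a7*. No member (0 of 9) and 0% of 16313 genes passed, with 0 of 9 members and 6.06% of genes at an unadjusted p under 0.05, so a smaller OGD effect with TIA was not shown for any of these genes.

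The balance within the vesicular pair was followed as the share of *Slc17a6* in the summed FPKM of *Slc17a6* and *Slc17a7*. It was 18.5, 16.5, 14.2 and 11.2% in CONTROL-VEH and 16.5, 21.3, 22.3 and 21.7% in OGD-VEH. In CONTROL-TIA it was 17.4, 14.7, 15.4 and 19.4%, and in OGD-TIA 17.7, 16.98, 21.6 and 22.3%. In OGD-VEH, 3 of the 4 cultures were above all controls of their arm, and the difference of 5.39 percentage points had p = 0.0571 by a two-sided exact permutation test (0.228 after Benjamini-Hochberg adjustment over 8 comparisons of shares). With TIA the difference was 2.90 points (exact p = 0.171, adjusted 0.343). The smallest p that 4 against 4 cultures allow is 0.0286. With isoforms weighted by length the differences were 8.18 and 5.64 points, both at that smallest exact p.

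The share of *Slc1a1* in the FPKM of *Slc1a1*, *Slc1a2* and *Slc1a3* sets the neuronal carrier against both glial ones. It was 11.7, 9.80, 9.11 and 6.20% in CONTROL-VEH and 8.45, 4.58, 4.63 and 1.74% in OGD-VEH, a difference of -4.36 points (exact permutation p = 0.0571, adjusted 0.228). In CONTROL-TIA it was 11.2, 11.6, 11.2 and 9.06% and in OGD-TIA 8.56, 9.496, 10.7 and 3.49%, a difference of -2.71 points (exact permutation p = 0.0857, adjusted 0.229). The 2 other comparisons of this share gave 1.55 points for CONTROL-TIA against CONTROL-VEH (exact permutation p = 0.371) and 3.20 points for OGD-TIA against OGD-VEH (exact permutation p = 0.229). Cultures 12 and 16 were the lowest of their groups.

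Because neuron and glia markers also moved with OGD, some members were set beside a marker score (the mean of log2 FPKM over the marker list, centred on the 16 cultures). These were *Slc17a7*, *Slc17a6*, *Slc1a1*, *Slc1a3*, *Slc1a2* and *Glul*, and the other members were not compared in this way. Without TIA, 8 of 8 neuron markers had a negative log2 fold change after OGD and 1 of them, *Syt1*, was a DEG, while 6 of 6 radial glia markers had a positive one and 2, *Vim* and *Nes*, were DEGs. Of the 9 astrocyte markers tested, 8 were positive and 0 were DEGs. Of all genes, 4.09% were DEGs in this comparison. The neuron score averaged 0.32 in CONTROL-VEH and -0.52 in OGD-VEH, and the astrocyte score -0.19 and 0.51. The centred log2 level of *Slc1a1* less that score ran from -0.15 to -0.10 in CONTROL-VEH and from -0.01 to 0.37 in OGD-VEH. These groups did not overlap, so *Slc1a1* was lowered by less than the neuron score. As the score itself fell, a gene at an unchanged level would also be higher on this measure. The share of all genes without overlap on this measure and those below was not computed. In the TIA arm the groups overlapped for *Slc1a1* less the neuron score, with -0.13 to 0.10 in CONTROL-TIA and -0.08 to 0.34 in OGD-TIA. *Slc17a7* less that score was lower on average after OGD, with 0.23 ± 0.09 in CONTROL-VEH and -0.50 ± 0.47 in OGD-VEH (SD, n = 4), and with 0.27 ± 0.18 in CONTROL-TIA and 0.00 ± 0.09 in OGD-TIA, and the groups overlapped in both arms. Against the excitatory neuron markers, *Slc17a7* gave 0.34 in CONTROL-VEH (0.19 to 0.47) and -0.45 in OGD-VEH (-0.88 to 0.13), without overlap. With TIA the groups overlapped on that measure, with 0.14 to 0.28 in CONTROL-TIA and -0.52 to 0.15 in OGD-TIA. *Slc17a6* against the same list overlapped, with means of 0.04 and -0.19.

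*Slc1a3* followed the astrocyte score, with differences from it of 0.05 in CONTROL-VEH, 0.02 in OGD-VEH, 0.04 in CONTROL-TIA and -0.11 in OGD-TIA. Less the radial glia score, *Slc1a3* averaged 0.208 in CONTROL-VEH, -0.131 in OGD-VEH, 0.068 in CONTROL-TIA and -0.145 in OGD-TIA. *Slc1a2* did not follow the astrocyte score. Its level less the astrocyte score ranged from 0.09 to 1.13 in CONTROL-VEH and from -0.70 to -0.50 in OGD-VEH. With TIA it ranged from -0.14 to 1.23 in CONTROL-TIA and from -0.57 to -0.35 in OGD-TIA. All 8 OGD cultures lay below all 8 controls. As the score itself rose, a gene at an unchanged level would also be lower on this measure, and the share of all genes without overlap was not computed. Of the astrocyte markers tested over both arms, *Slc4a4* also had a negative log2 fold change (-0.28, padj = 0.319), and 8 had a positive one. *Glul* less the astrocyte score averaged 0.16 in CONTROL-VEH and -0.33 in OGD-VEH, with overlap. These differences are descriptions chosen after the values were seen, and the part of the cell type markers in the results was not tested.

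**Figure D4:**
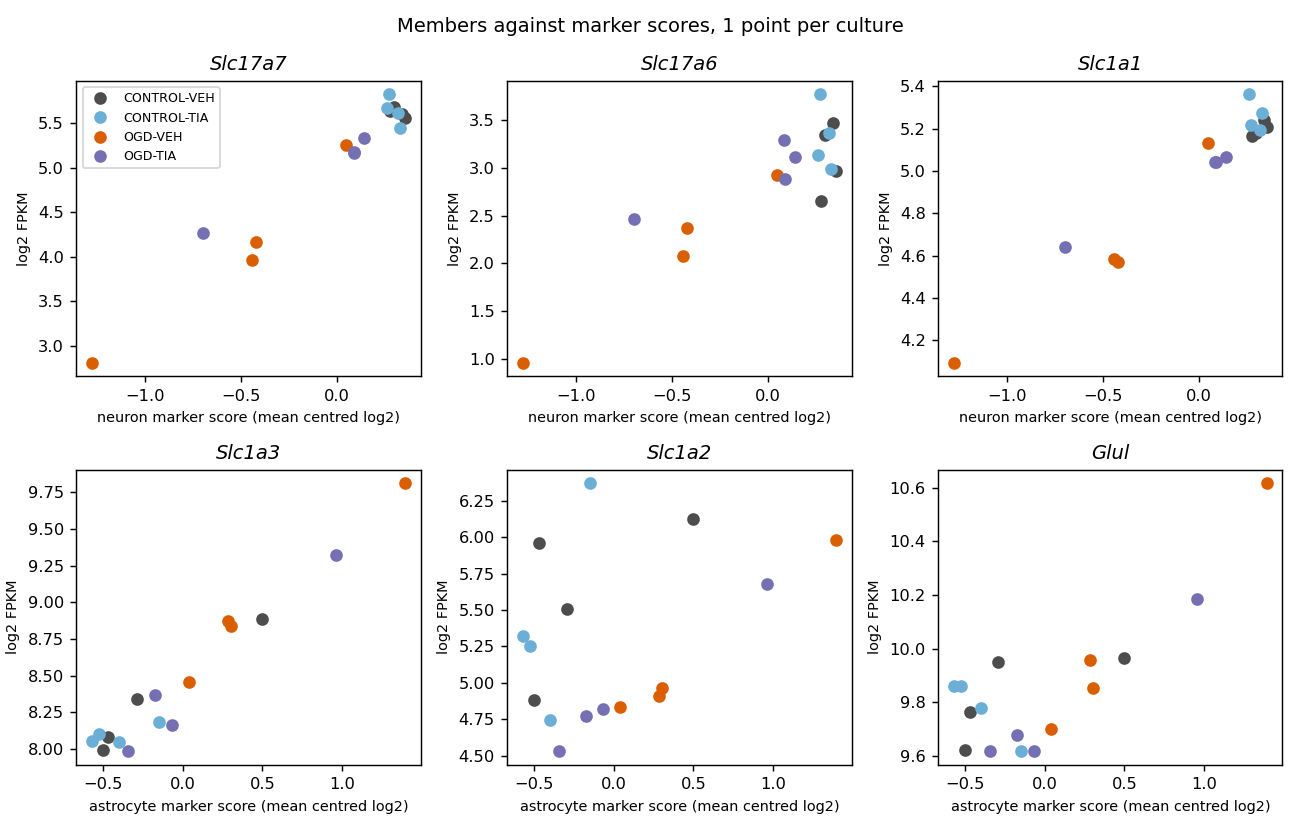
Log2 FPKM of 6 members (y axis) against the neuron or astrocyte marker score (x axis, mean centred log2) with 1 point per culture, coloured by group. *Slc17a7* and *Slc1a1* are lowest in culture 12, which has the lowest neuron score of -1.28, and *Slc1a2* in most OGD cultures lies low at a given astrocyte score.

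By the smallest root mean square difference of centred log2 profiles over the 16 cultures, among the 11000 genes averaging 5 FPKM or more, the genes most like *Slc17a7* were *Syt1* (0.137), which encodes the calcium sensor of synaptic vesicle fusion, *Doc2b* (0.147), which encodes a calcium-binding protein of exocytosis, and *2010300C02Rik* (0.147). The root mean square of the *Slc17a7* profile itself was 0.807. *Syt1* fell by 1.11 over both arms, *Doc2b* by 1.002 and *2010300C02Rik* by 1.05 on the log2 scale. As they were chosen for this likeness, those values are a description.

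Among 34 other genes of glutamate transport and metabolism, listed from general knowledge, 32 were tested between OGD-VEH and CONTROL-VEH. Of these 0 were DEGs, against 4.09% of all genes, and 3 had padj of at most 0.05, all lower, against 8.44% of all genes in either direction and 3.45% as lower. They included *Slc25a22* (a mitochondrial glutamate carrier; -0.82, padj = 0.0347) and *Slc1a6* (the transporter EAAT4; -0.94, padj = 0.0479). *Slc25a22* measured 789, 696, 746 and 750 FPKM in CONTROL-VEH, against 579, 430, 393 and 320 FPKM in OGD-VEH, and the groups did not overlap. With TIA, 31 were tested and 0 passed either threshold, as was the case for all genes. The median log2 fold changes of the list were 0.08 and 0.04 in the 2 arms, against 0.10 and 0.04 for all genes.

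Over both arms, 6 of 31 rose and 5 fell at padj of at most 0.05, against 18.8% of all genes that rose and 13.7% that fell, and 1 was a DEG, against 4.8%. The DEG was *Slc7a11*, which encodes xCT, the exchanger that exports glutamate for cystine. It measured 2.69, 1.76, 1.93 and 3.14 FPKM in CONTROL-VEH, against 3.66, 16.6, 14.5 and 52.4 FPKM in OGD-VEH. In CONTROL-TIA it measured 3.23, 2.64, 2.20 and 3.94 FPKM, and in OGD-TIA 3.20, 6.94, 5.91 and 31.3 FPKM. Cultures 12 and 16 were highest, and culture 9 exceeded its controls by little. The log2 fold change was 2.61 without TIA (SE 0.68, padj = 0.0502), 1.42 with TIA (SE 0.61, padj = 0.252) and 2.02 over both arms (SE 0.49, padj = 0.00868). Without culture 12 the value without TIA was 2.01 (padj = 0.0742), without culture 16 that with TIA was 0.77 (padj = 0.228), and over both arms it was 1.39 (padj = 0.0115) without both. Its partner subunit *Slc3a2*, the most abundant of the list at 782 FPKM, rose by 0.42 (padj = 0.0113), and the leucine and glutamine exchanger *Slc7a5*, which shares that subunit, rose by 0.33 (padj = 0.00914). *Slc38a2*, the glutamine transporter SNAT2, rose by 0.27 (padj = 0.018). *Slc25a22* fell by 0.66 (padj = 0.00323), *Slc1a6* by 0.71 (padj = 0.00453) and *Slc17a8*, encoding VGLUT3, by 0.64 (padj = 0.0148). Of the remaining abundant genes, *Glud1*, encoding glutamate dehydrogenase (0.31, padj = 0.0554), *Asns*, encoding asparagine synthetase (-0.12, padj = 0.502), and *Bcat1*, encoding a branched-chain aminotransferase (-0.15, padj = 0.282), did not pass.

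**Figure D5:**
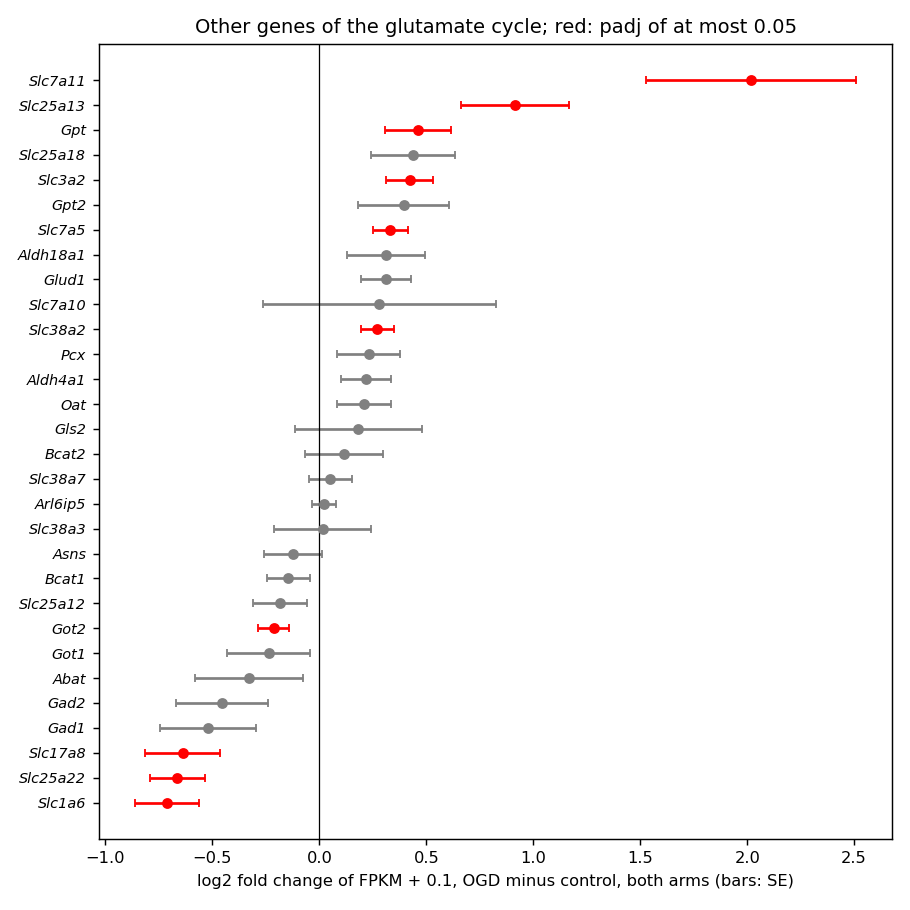
Log2 fold change over both arms (x axis, OGD minus control on FPKM + 0.1, bars for the SE) of 30 other glutamate cycle genes that were tested. The 10 genes in red had padj of at most 0.05, with *Slc7a11* highest at 2.02 and *Slc1a6* lowest at -0.71.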

How the data were processed

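Reads of 50 bases, single-end and from stranded libraries, were aligned by the authors with STAR to GRCm38. The deposited values are isoform FPKM after TMM scaling. Of 135276 lines, 74 without identifier were left out, and the 135202 isoforms were summed by symbol to 53679 genes. Positions and isoforms are from GENCODE M21 (99.82% of isoforms matched). Depth was estimated from the smallest FPKM steps of 17546 single-isoform genes, and no counting interval was computed. It includes the TMM scaling, as do the estimated reads per gene. After adding 0.1, log2 values of genes averaging 0.5 FPKM or more were fitted with limma 3.58.1 (R 4.3.3, trend) in the 8 cultures of a comparison, or in all 16 for the interaction and the mean OGD effect, with Benjamini-Hochberg adjustment over all genes. The thresholds and the pairwise comparisons follow the study, and the interaction and the mean OGD effect over both arms were added here. The study's own tool models counts, so that numbers of calls from limma on FPKM can differ from it. The procedure was run on simulated data with the spread of the control cultures and changes larger than those of the members. Its behaviour at smaller changes or at the wider spread of the OGD cultures was not examined. Shares were compared by exact permutation. Members and lists were set by gene name, with earlier results of these data known. Named genes were all members, isoforms with at least 10% of a member's FPKM, listed genes called as DEGs, the 6 most abundant listed genes and the 3 genes most like a called member. 1 listed gene is counted but not reported here by name. Other named genes were chosen after their values were seen. The alternatives "longest coding isoform" and leaving out cultures 12 and 16 were added after the data were seen. Python 3.11.15 and matplotlib were used for the remaining steps.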

Additional observations from a re-analysis of the deposited data

Results flagged for a closer look

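Within the 44 groups of 4 cultures examined for the 9 members and the 2 shares, 5 had a culture whose gap to the others exceeded Dixon's critical value, which chance passes in about 1 of 20 groups. Culture 16 of OGD-TIA was such a culture for *Slc1a1* (24.98 FPKM, low), *Slc1a4* (43.8 FPKM, low) and *Glul* (1165 FPKM, high). Culture 12 of OGD-VEH was high for *Slc1a2* (63.3 FPKM). Culture 9 of OGD-VEH was low for *Slc38a1* (54.4 FPKM), a value close to those of the controls.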

How the results depend on the processing

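The number of members called between OGD-VEH and CONTROL-VEH was 0, and became 1 with a minimum mean of 2 FPKM, with array quality weights or with isoforms weighted by length, and 2 with all 16 cultures in one fit (leaving out single cultures, 0 to 2). At padj of at most 0.05 alone it went from 0 to 1, 5, 3 and 3 under the same settings (leaving out single cultures, 0 to 3, with 3 without culture 9), while 8.44% of all genes became 12.3%, 38.8%, 25.1% and 28.2%. Array quality weights also gave 1 member called and 2 at padj of at most 0.05 between OGD-TIA and OGD-VEH, where the counts had been 0, and 2.5% and 9.42% of all genes. Over both arms the 1 called member became 0 without cultures 12 and 16 (0 to 1 leaving out single cultures), and the 3 at padj of at most 0.05 became 5 with array quality weights and 5 with length weights (2 to 4 leaving out single cultures), while 32.5% of all genes became 43.1% and 45.5%. The *Slc17a6* share differed by 8.18 and 5.64 points without and with TIA under length weights, and for OGD-TIA against OGD-VEH ranged from -2.17 to 0.03 leaving out single cultures. The cause of these changes was not tested.

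Directions that turned belonged to small log2 fold changes. *Slc1a5* was at -0.37 (array weights) and -0.10 (longest coding isoform) without TIA, 0.15 (leading isoform) with TIA, -0.092 (array weights) for TIA alone, 0.071, 0.094 and 0.17 (array weights, longest isoform, without cultures 12 and 16) for OGD-TIA against OGD-VEH, and -0.29, -0.52 and -0.12 over both arms under those 3 settings. *Slc38a1* was at -0.12 without TIA (leading isoform) and -0.16 for TIA alone (longest isoform), *Slc1a4* at -0.0058 with TIA (longest isoform), *Glul* at 0.036 and 0.079 with TIA (length weights, longest isoform) and -0.065 over both arms without cultures 12 and 16, and *Slc17a7* at -0.059 for TIA alone with the leading or longest isoform. Leaving out single cultures, *Slc1a5* ranged from -0.25 to 0.77 without TIA, -0.39 to 0.20 with TIA, -0.35 to 0.67 for TIA alone, -0.61 to 0.16 for OGD-TIA against OGD-VEH and -0.20 to 0.31 over both arms. *Glul* ranged from -0.14 to 0.049 with TIA and -0.11 to 0.0071 for TIA alone, *Slc1a2* from -0.51 to 0.028 for TIA alone and -0.46 to 0.048 for OGD-TIA against OGD-VEH, *Slc1a4* from -0.0062 to 0.066 and *Slc17a7* from -0.044 to 0.081 for TIA alone. No paired analysis was run, because the cultures are numbered 1 to 16 without a number shared between groups. The sources used here do not state whether cultures of different groups share a dissection.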
